A study of Homo sapiens with 12 samples.

Results

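Caco-2 cells, which derive from a colon carcinoma and come to resemble enterocytes of the small intestine when left at confluence, were exposed to a low dose of surfactant-coated silver nanoparticles (AgPURE) and set against cells kept in medium. The comparison covers 6 of the 12 arrays of the study, 3 with nanoparticles at 2.5 µg/mL and 3 with medium, and all 19775 genes that had a probe set with exactly 1 gene symbol. Each gene was represented by the probe set of that kind with the highest mean over the 12 arrays. The other arrays were 3 with the same nanoparticles at 25 µg/mL and 3 with silver ions (AgNO3) at 0.5 µg/mL, and they enter here only where a gene's value at the low dose is set beside them. All 4 groups shared the cell line at passage 22, culture for 21 days after confluence, and 10% serum. They also shared 24 h in DMEM with an insulin, transferrin and selenium supplement and antibiotics. The medium arrays received that medium without silver. No array of the surfactant alone is among the 12, so particle and coating cannot be told apart, and the doses of particles and ions differ in total silver. Nothing in the labels tells separate cultures from repeats of 1 culture, and the p-values then measure only the spread between these samples, which may be technical.

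The values are log2 expression levels, so a difference of 1 is a 2-fold difference. The 6 arrays resembled each other closely. The correlation across all 54675 probe sets, controls included, was 0.994 to 0.996 between a nanoparticle array and a medium array. It was 0.994 to 0.996 among the 3 nanoparticle arrays and 0.995 to 0.995 among the 3 medium arrays (probe sets are not independent replicates). The median SD of a gene was 0.113 among nanoparticle arrays and 0.109 among medium arrays. Of 8 enterocyte markers, VIL1, CDH17 and DPP4 were bright, with means of 10.3, 10.6 and 9.73 in nanoparticle cells and 10.4, 10.6 and 9.72 in medium cells, while SI (sucrase-isomaltase) was dim at 3.36 in nanoparticle cells and 3.56 in medium cells, and ANPEP was dim at 4.09 and 4.13. The 4 leukocyte, 3 endothelial, 3 enteroendocrine and 2 Paneth markers all ranked below the median gene in mean level over the 12 arrays. Goblet markers were mixed. TFF3 and SPDEF ranked above the median gene, at 6.34 and 5.96 in nanoparticle cells and 6.32 and 6.06 in medium cells. MUC2 and FCGBP were dim. COL1A1 and PDGFRA, which are used as fibroblast markers, stood at 9.33 and 8.34 in nanoparticle cells and 9.21 and 8.36 in medium cells, while COL1A2 and DCN were dim.

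Silver ions and other soft metals bind the thiol groups of proteins. Metallothioneins are small cysteine-rich proteins that hold zinc, copper, cadmium and silver. Their genes are switched on by MTF1, a zinc-sensing transcription factor that binds metal response elements, short DNA motifs near the start of these genes. MTF1 also drives SLC30A1, a zinc exporter of the cell surface. Oxidative and proteotoxic damage are met by other regulators, among them NRF2, which drives HMOX1, GCLM and TXNRD1, and the heat shock factor HSF1, which drives DNAJB1 and HSPA6.

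Because the metallothioneins carried the largest differences of the comparison, the 250 bases before the start of MT1X, MT2A and MT1H are shown, from RefSeq on GRCh38.p14, plus strand, 5′ to 3′. The core of the metal response element was searched as TGCACNC or TGCGCNC on both strands, and capitals mark each match.

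MT1X promoter, chr16:56682220-56682469: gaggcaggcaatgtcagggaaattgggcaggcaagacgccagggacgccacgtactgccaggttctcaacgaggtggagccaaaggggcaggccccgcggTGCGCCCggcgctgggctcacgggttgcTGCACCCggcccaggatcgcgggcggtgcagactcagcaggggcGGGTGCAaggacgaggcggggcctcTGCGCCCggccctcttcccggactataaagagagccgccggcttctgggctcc
MT2A promoter, chr16:56608334-56608583: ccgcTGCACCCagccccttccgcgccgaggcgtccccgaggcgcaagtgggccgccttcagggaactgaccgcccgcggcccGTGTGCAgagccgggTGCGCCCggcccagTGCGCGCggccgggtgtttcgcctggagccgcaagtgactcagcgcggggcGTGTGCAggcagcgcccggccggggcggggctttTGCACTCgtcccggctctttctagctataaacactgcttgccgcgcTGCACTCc
MT1H promoter, chr16:56669564-56669813: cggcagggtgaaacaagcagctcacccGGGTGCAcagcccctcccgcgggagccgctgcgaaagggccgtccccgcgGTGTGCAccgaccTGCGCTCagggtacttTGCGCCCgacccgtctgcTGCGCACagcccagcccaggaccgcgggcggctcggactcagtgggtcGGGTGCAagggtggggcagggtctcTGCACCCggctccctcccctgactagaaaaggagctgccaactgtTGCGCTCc

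No windows of MT1F, MT1HL1, MT1G, MT1E, MT1M and MT3 are reported, so the matches do not describe the whole family. The window of MT1X held 4 matches, 3 forward and 1 reverse. That of MT2A held 7, 5 forward and 2 reverse, and that of MT1H held 8, 5 forward and 3 reverse. Among all 35116 promoters of the same length, 24.8% held at least 1 match, 0.370% at least 4 and 0.0313% at least 7. The windows of SELENOW and CEACAM6, which also lay lower in nanoparticle cells, held 0 matches, which says only that these letters are not in those windows. Matches were also found before other genes, with 3 before MT4 (difference 0.03), 3 before the zinc transporter SLC30A2 (-0.09) and 1 before SLC30A1 (-0.36). A match is a description of letters and not a binding site shown by these data.

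At 2.5 µg/mL no gene passed the test. Of 19775 genes, 0 had an adjusted p under 0.05 (0%) in limma's linear model with Benjamini-Hochberg adjustment, and the lowest adjusted p was 0.34. An unadjusted p under 0.05 was found for 900 genes (4.55%), against 988.75 if none differed, with 536 higher (2.71%) and 364 lower (1.84%) in nanoparticle cells. The arrays of the 2 groups did not overlap for 1970 genes (9.96%), with 1078 higher (5.45%) and 892 lower (4.51%) in nanoparticle cells. With 3 arrays against 3, such separation also arises from the order of the arrays alone. It was counted without a test, so separate arrays do not by themselves mark a difference. The median difference of all genes was 0.00 and the 5th and 95th percentiles were -0.18 and 0.20.

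The intervals limit how large a difference in measured signal these arrays could have missed, given the spread between these samples, which may be technical. They cannot bound a change in genes near the floor, where a narrow interval may come from background. A mean level under 5 was found for 8042 genes, and no detection calls were used. Of the 9888 genes left by a filter on dim genes, 9872 had an interval within 2-fold. The 95% confidence interval of the difference lay within 2-fold either way for 19754 genes (99.9%) and within 1.5-fold for 19289 (97.5%), with a median half-width of 0.23 on the log2 scale. Only 2 genes differed by 2-fold or more, MT1X and MT2A, and both lay lower. Among the 21 genes whose interval reached beyond 2-fold, 7 were metallothioneins. NIBAN1, ZC3H12C and LAMP3 were also among them, as was ALB, whose interval ran from -1.05 to 0.90.

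The call of 0 genes depended on the variance model and on the scaling. With a variance prior that follows the intensity, limma called 8 genes, all lower in nanoparticle cells: MT1X, MT2A, MT1HL1, MT1G, SELENOW and CEACAM6 at an adjusted p of 0.0194 each, and MT1F and MT1H at 0.0271. With arrays scaled on the hybridization control probe sets, which moved the median of all genes to -0.08, 8 genes were called lower, namely SELENOW and the 7 metallothioneins that were bright in these cells. Quantile normalization, median centring, scaling on the poly-A controls, a filter on dim genes, both other choices of probe set, array weights, an unmoderated test and the fit of the 6 arrays alone called 0 genes each. Leaving out any 1 of the 6 arrays also called 0. Scaling on the poly-A controls moved the median of all genes to 0.13, and list medians nearer to 0 than these shifts change sign with them.

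**Figure D1:**
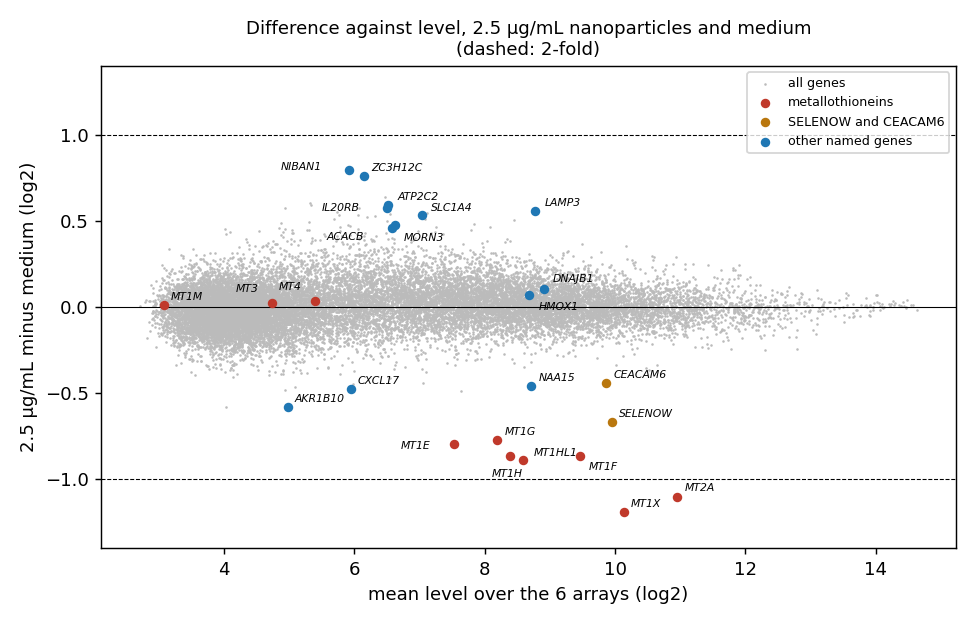
Each grey point is 1 of 19775 genes, with its mean log2 level over the 6 arrays on the x axis and its log2 difference, 2.5 µg/mL nanoparticles minus medium, on the y axis. Dashed lines mark 2-fold. The 7 bright metallothioneins form the lowest group, with differences of -1.19 to -0.77, and most other genes lie between -0.18 and 0.20.

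Of the 10 metallothionein genes measured, 7 lay lower in nanoparticle cells with no overlap between the groups, and the other 3 were dim. The median difference of the 10 was -0.83, against 0.00 for all genes, and 0 of 10 passed the test. An unadjusted p under 0.05 was found for 7 of 10, all lower. Of all genes, 1.84% were lower at that p and 4.51% lay lower with no overlap. In bulk RNA, fewer cells of a kind and less RNA per cell cannot be told apart.

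MT1X, on chromosome 16 at 56682470 to 56684196 of GRCh38.p14, had levels of 9.73, 9.10 and 9.79 in the 3 nanoparticle arrays, against 11.10, 10.57 and 10.52 in the 3 medium arrays. The highest nanoparticle array lay below the lowest medium array. The difference was -1.19 ± 0.22 (SE), with a 95% interval of -1.66 to -0.72, which is 2.28-fold lower, with an adjusted p of 0.34. MT2A, at 56608584 to 56609497 of the same chromosome and the brightest of the family, had 10.65, 10.07 and 10.50 in nanoparticle arrays, against 11.94, 11.36 and 11.22 in medium arrays. These groups did not overlap either, and the difference was -1.10 ± 0.20 (SE), or 2.14-fold lower, with an adjusted p of 0.34.

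The other 5 bright members differed by less than 2-fold. MT1F had 9.07, 8.80 and 9.22 in nanoparticle arrays, against 10.22, 9.79 and 9.67 in medium arrays. MT1H had 8.07, 7.74 and 8.04 in nanoparticle arrays, against 9.13, 8.75 and 8.56 in medium arrays. MT1HL1, a metallothionein-like gene on chromosome 1, had 8.26, 7.97 and 8.21 in nanoparticle arrays, against 9.36, 8.99 and 8.75 in medium arrays. In all 3 genes the groups stood apart and medium replicate 1 was the highest array. MT1G had 7.82, 7.69 and 7.90 in nanoparticle arrays, against 8.97, 8.47 and 8.30 in medium arrays. MT1E had 7.43, 6.80 and 7.18 in nanoparticle arrays, against 8.42, 7.73 and 7.65 in medium arrays. The groups came closest to each other for MT1E, and its adjusted p was the highest of the 7, at 1.0. The differences of these 5 genes ran from -0.89 for MT1HL1 to -0.77 for MT1G.

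MT1M, MT3 and MT4 had levels between 3.03 and 5.62 in the 6 arrays. MT1M had 3.17, 3.05 and 3.03 in nanoparticle arrays, against 3.06, 3.06 and 3.10 in medium arrays, and the differences of MT1M, MT3 and MT4 were 0.01, 0.03 and 0.03, each turning negative when arrays were scaled on the hybridization controls. The second bright probe sets of MT1X, MT1F and MT1E lay lower as well, at -1.27, -0.93 and -0.79. The second probe set of MT1G was dim, with a mean of 4.30 over the 12 arrays, and lay at 0.15. The metallothionein genes are close copies of each other, and the bright probe sets carry the manufacturer's mark for sequences shared with other transcripts, so the 7 genes are not independent measurements and the share of each copy is uncertain.

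The size of the metallothionein difference leaned on 1 medium array. Medium replicate 1 was the highest of the 6 arrays for each of the 7 bright genes. As medians over the 10 genes, the deviations from the medium means were -0.75, -1.07 and -0.71 in the nanoparticle arrays, and 0.33, -0.11 and -0.24 in the medium arrays. All 3 nanoparticle arrays lay below all 3 medium arrays. Without medium replicate 1 the median difference of the family was -0.64, and over the 6 fits that left out 1 array it ran from -0.96 to -0.64. The part of that array's RNA or handling in the result was not tested.

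**Figure D2:**
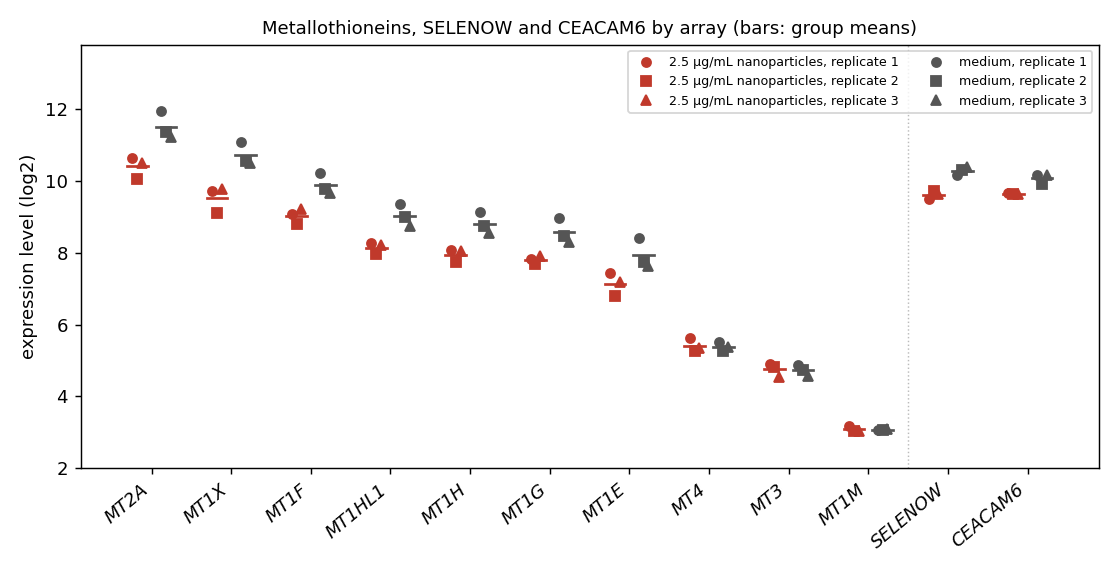
Log2 level of the 10 metallothioneins, SELENOW and CEACAM6 in each array, with nanoparticle arrays (2.5 µg/mL, red) left of medium arrays (grey). Symbols give the replicate, numbered in sample order and not paired between groups, and bars give the group means. The groups are apart for the 7 bright metallothioneins, SELENOW and CEACAM6, and overlap for MT4, MT3 and MT1M.

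The same genes behaved differently at the high dose. Against the same 3 medium arrays, at 25 µg/mL all 10 metallothioneins rose past the test, in a comparison that called 6607 genes (33.4%, with 14.1% higher and 19.3% lower), and their median difference was 3.47. The direct contrast of the 2 doses takes its log2 difference from the arrays of those doses alone. Its SE and p use the spread pooled over all 12 arrays, the medium arrays included. This contrast called 6717 genes (34%), with 13.7% higher and 20.3% lower at 25 µg/mL, and all 10 metallothioneins were higher at 25 µg/mL. MT1X had 14.06, 14.12 and 14.10 in the high-dose arrays, against 9.73, 9.10 and 9.79 in the low-dose arrays. That is a measured difference of 4.56, with an adjusted p of 4.1e-09 in limma. At 25 µg/mL only 16 genes were brighter than MT1X and 2 brighter than MT2A, and whether these probe sets were saturated was not tested. MT1M, which was at the dim end in low-dose and medium arrays, was 5.43 higher at 25 µg/mL than at 2.5 µg/mL, with an adjusted p of 1.1e-13. Its low-dose level of 3.03 to 3.17 is among the dimmest on the arrays, so this difference may understate the change.

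Between the low particle dose and the silver ions no gene passed the test (0 of 19775, 0%). MT1X had 9.73, 9.10 and 9.79 in the low-dose nanoparticle arrays, against 9.81, 9.94 and 10.67 with ions. The nanoparticle arrays lay below the ion arrays, with a difference of -0.60 and a 95% interval of -1.08 to -0.13, at an adjusted p of 0.52. MT2A differed by -0.59, with an interval of -1.03 to -0.15. The median difference of the 10 metallothioneins from medium was -0.83 at the low particle dose and -0.28 with ions. Ions against medium called 0 genes (0%). The comparisons with medium share the 3 medium arrays, so that a high or low medium array moves all of them the same way.

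SLC30A1, the zinc exporter driven by MTF1, had 10.31, 10.12 and 10.57 in nanoparticle arrays, against 10.83, 10.57 and 10.70 in medium arrays. The groups touched, with the highest nanoparticle array as bright as the lowest medium array, and the difference was -0.36 ± 0.13 (SE) at an unadjusted p of 0.016 and an adjusted p of 1.0. A second, equally bright probe set of SLC30A1 differed by only -0.04. At 25 µg/mL SLC30A1 was 0.67 higher than in medium (adjusted p = 0.0012), and the ions lay at -0.58 (adjusted p = 0.65). MTF1 itself had 6.76, 6.34 and 6.58 in nanoparticle arrays, against 6.32, 6.46 and 6.59 in medium arrays, which overlap.

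Of the 10 SLC30 transporters, which carry zinc out of the cytosol, 0 passed the test and the median difference was -0.03. Of the 14 SLC39 transporters, which bring zinc in, 0 passed and the median was -0.05. SLC39A6 lay lowest of these, at -0.17 with groups that did not overlap. Among 15 genes of copper handling and the metal regulator, 2 had an unadjusted p under 0.05, the copper importers SLC31A1 and SLC31A2. Both were lower, against 1.84% of all genes at that p. SLC31A1 had 8.87, 9.03 and 8.89 in nanoparticle arrays, against 9.20, 9.10 and 9.14 in medium arrays. SLC31A2 had 6.04, 6.23 and 5.96 in nanoparticle arrays, against 6.29, 6.39 and 6.29 in medium arrays. Both sets of arrays were apart, by -0.21 and -0.24, with adjusted p of 1.0 each. Only 2 of the 3 probe sets of SLC31A1 were lower, and the highest lay at 0.07. Of 13 iron genes 0 passed, and the largest difference was 0.37 for CYBRD1, an iron reductase of the duodenal brush border, whose arrays overlapped.

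SELENOW was the only gene called beside metallothioneins in both alternatives that called any. It encodes a small selenoprotein with a redox motif, and all groups received selenium with the supplement. Its levels were 9.49, 9.73 and 9.63 in nanoparticle arrays, against 10.18, 10.30 and 10.38 in medium arrays. Every nanoparticle array lay below every medium array, and the difference was -0.67 ± 0.12 (SE), with a 95% interval of -0.94 to -0.40 and an adjusted p of 0.34. Its second probe set differed by -0.62. At 25 µg/mL SELENOW was also lower than in medium, by -0.51 (adjusted p = 0.0051), and the ions lay at -0.85 (adjusted p = 0.15). The 2 particle doses differed from each other by 0.16, with an adjusted p of 0.39, and the low dose and the ions by 0.18, at 0.69.

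Among 22 selenoproteins measured, 0 passed the test and the median difference was -0.04. Of the 22, 5 had an unadjusted p under 0.05, all lower, against 1.84% of all genes. GPX1, a cytosolic glutathione peroxidase whose mRNA is known to be sensitive to selenium supply, had 10.18, 10.18 and 10.10 in nanoparticle arrays, against 10.35, 10.47 and 10.46 in medium arrays. The groups stood apart by -0.27 (unadjusted p = 0.0041, adjusted p = 1.0). GPX1 lay at -0.53 with 25 µg/mL and at -0.48 with ions. GPX2, the peroxidase of the gut epithelium, and SELENON lay at -0.32 and -0.28 with overlapping arrays, and TXNRD1 lay at -0.21.

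CEACAM6, an epithelial cell adhesion molecule of the carcinoembryonic antigen family, was chosen after its values were seen. It had 9.67, 9.63 and 9.63 in nanoparticle arrays, against 10.17, 9.92 and 10.17 in medium arrays. The nanoparticle arrays were close together and below all medium arrays, with a difference of -0.44 ± 0.09 (SE) and an adjusted p of 0.38, and its second probe set lay at -0.40. In 25 µg/mL cells CEACAM6 was 0.55 higher than in medium (adjusted p = 0.00015), and it was 1.00 higher at 25 µg/mL than at 2.5 µg/mL (adjusted p = 7.3e-07). The ions lay at 0.02.

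Below the metallothioneins and SELENOW, the lowest genes with a level of at least 6 in one group and separate arrays differed by less than 1.5-fold. NAA15, a subunit of the N-terminal acetyltransferase of new proteins, had 8.46, 8.59 and 8.40 in nanoparticle arrays, against 8.84, 8.90 and 9.08 in medium arrays. All 6 of its probe sets had the same sign, although they ran from -0.46 to -0.01. CXCL17, a mucosal chemokine, lay at -0.48, the antisense transcript FOXP4-AS1 at -0.45 and COL3A1 at -0.44, and COL3A1 had probe sets of both signs. Adjusted p was 1.0 for these 4 genes.

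On the higher side, NIBAN1, a stress-responsive regulator of translation, had 6.26, 5.95 and 6.75 in nanoparticle arrays, against 5.78, 5.84 and 4.95 in medium arrays. One medium array was well below the others, and the difference of 0.80 ± 0.27 (SE) had an adjusted p of 1.0. ZC3H12C, of a family of RNA-degrading zinc finger proteins, had 6.47, 6.73 and 6.40 in nanoparticle arrays, against 5.52, 6.22 and 5.59 in medium arrays. It differed by 0.76 ± 0.20 (SE), adjusted p 1.0, and its second, dim probe set lay at -0.12. LAMP3, a lysosomal membrane protein, had 9.08, 8.65 and 9.44 in nanoparticle arrays, against 8.65, 8.64 and 8.21 in medium arrays, so that the groups met at 8.65. SLC1A4, an amino acid transporter, had 7.36, 7.04 and 7.51 in nanoparticle arrays, against 6.68, 6.94 and 6.69 in medium arrays. Of its 5 probe sets, the 3 brightest lay at 0.54, 0.57 and 0.47 and the dimmer ones at -0.04 and -0.19.

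The higher gene with the lowest p was MORN3, with 6.92, 6.82 and 6.83 in nanoparticle arrays, against 6.35, 6.42 and 6.37 in medium arrays. It differed by 0.48 ± 0.09 (SE), with an unadjusted p of 6.6e-05 and an adjusted p of 0.34. At 25 µg/mL MORN3 lay on the other side of medium, at -1.15 (adjusted p = 2.2e-07), and the ions at 0.10. ACACB, the acetyl-CoA carboxylase tied to mitochondrial fat oxidation, had 6.80, 6.84 and 6.78 in nanoparticle arrays, against 6.33, 6.50 and 6.20 in medium arrays. The groups were apart by 0.46, but only 4 of its 7 probe sets were higher. USP51, DRICH1 and BRD10 completed the 5 higher genes with the lowest p, at 0.48, 0.55 and 0.37. The remaining genes among the 12 highest were ATP2C2, a calcium and manganese pump of the secretory pathway, at 0.59, the cytokine receptor chain IL20RB at 0.58, RASSF8-AS1 at 0.57, BEND7 at 0.54, THAP10, SCUBE3 and RASIP1 at 0.53 each. Several had probe sets of both signs, among them ATP2C2, RASSF8-AS1, BEND7, DRICH1, BRD10 and SCUBE3.

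**Figure D3:**
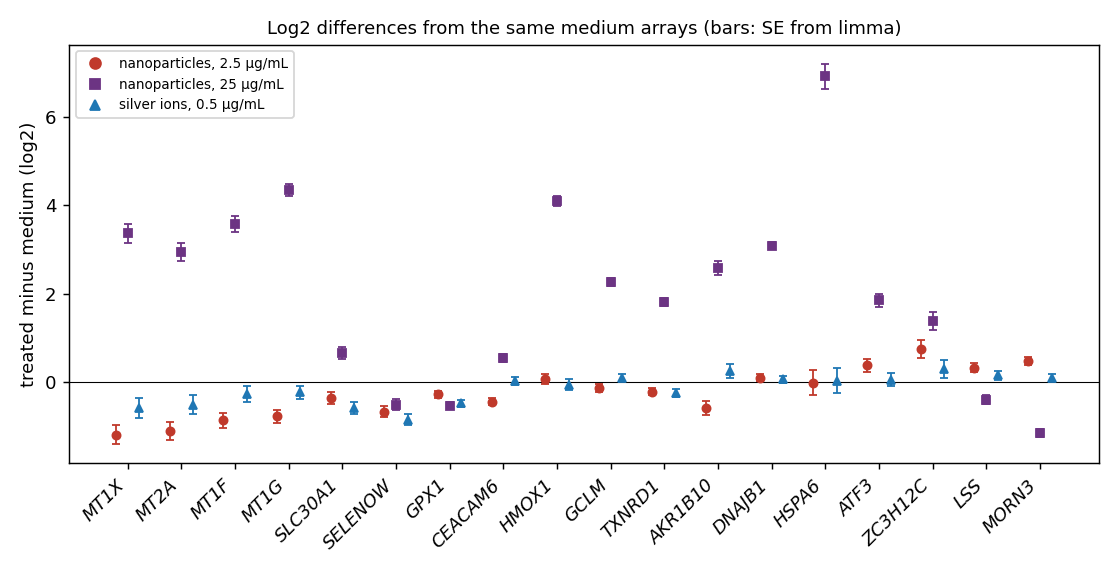
Log2 difference from the same 3 medium arrays for 18 genes, with the SE from limma. From left to right within each gene are nanoparticles at 2.5 µg/mL (red), nanoparticles at 25 µg/mL (purple) and silver ions at 0.5 µg/mL (blue). HMOX1, DNAJB1 and HSPA6 lie near 0 at 2.5 µg/mL and at 3.09 to 6.93 at 25 µg/mL, and the 4 metallothioneins lie below 0 at 2.5 µg/mL and above 0 at 25 µg/mL.

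None of the main stress genes that rose at the high dose passed the test at the low dose. HMOX1, the heme oxygenase, had 8.46, 8.84 and 8.86 in nanoparticle arrays, against 8.51, 8.69 and 8.76 in medium arrays. The groups overlapped, the difference was 0.07 with a 95% interval of -0.19 to 0.33, and the sign turned with hybridization scaling and with array weights. At 25 µg/mL HMOX1 was 4.10 higher than in medium (adjusted p = 2.6e-11). DNAJB1, a co-chaperone, had 8.94, 8.93 and 9.00 in nanoparticle arrays, against 8.83, 8.93 and 8.81 in medium arrays. Its groups were apart only at the third decimal, the interval was -0.07 to 0.28, and at 25 µg/mL it was 3.09 higher than in medium. HSPA6, an inducible heat shock protein, differed by -0.02 with an interval of -0.62 to 0.59, against a difference of 6.93 at 25 µg/mL.

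Of 23 heat shock genes measured, 0 passed the test, 1 had an unadjusted p under 0.05 (FKBP4, -0.19) and the median difference was -0.09, or -0.03 without nanoparticle replicate 3. Of 28 NRF2 targets, 0 passed and the median was -0.06. Of the 28, 6 had an unadjusted p under 0.05, all lower, among them TXNRD1, which is also in the selenoprotein list. Of all genes, 1.84% were lower at that p. With scaling on the poly-A controls both medians turned to 0.04 and 0.07, but that scaling lifted the median of all genes to 0.13. Among the lowest NRF2 targets were aldo-keto reductases. AKR1B10 had 4.63, 4.54 and 4.89 in nanoparticle arrays, against 5.62, 5.21 and 4.97 in medium arrays, a dim gene with separate groups and a difference of -0.58 (unadjusted p = 0.0027, adjusted p = 1.0). AKR1C1 had 12.73, 12.58 and 12.72 in nanoparticle arrays, against 13.08, 12.89 and 12.79 in medium arrays. AKR1C2, a near copy of it, lay at -0.25, and the 2 genes may share probes. For all 3 genes medium replicate 1 was again the highest array.

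GCLM, of glutathione synthesis, had 8.45, 8.28 and 8.52 in nanoparticle arrays, against 8.59, 8.57 and 8.48 in medium arrays, which overlap. TXNRD1, thioredoxin reductase, had 10.46, 10.38 and 10.52 in nanoparticle arrays, against 10.71, 10.70 and 10.60 in medium arrays. Its groups were apart by -0.21 (unadjusted p = 0.031), while it was 1.82 higher than medium at 25 µg/mL.

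Immediate early genes had a median of 0.04 over 22 measured, and 0 passed the test. ATF3, a stress-induced transcription factor, had 8.50, 8.33 and 8.91 in nanoparticle arrays, against 8.24, 8.14 and 8.21 in medium arrays. All nanoparticle arrays were higher, with nanoparticle replicate 3 well above the others, and the difference was 0.39 ± 0.15 (SE, adjusted p = 1.0). FOSL2 lay at 0.28, with 2 of its 5 probe sets on that side.

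The integrated stress response, complex I, proteasome and proliferation lists had medians near 0.1 either way, and nanoparticle replicate 2 did not share these shifts. In the integrated stress response, which limits translation and feeds amino acid synthesis, 0 of 25 genes passed the test and the median was 0.13. Of the 25, 24 lay above 0, against 50.6% of all genes and 55.4% of genes with a mean level of at least 7. Array by array the median deviation from the medium means was 0.17, -0.09 and 0.38 in nanoparticle arrays and 0.05, 0.02 and -0.05 in medium arrays. Nanoparticle replicate 2 thus lay below all medium arrays, and the median was 0.27 without it and 0.03 without nanoparticle replicate 3. The 2 members with an unadjusted p under 0.05 were SLC1A5, a glutamine transporter, at 0.24 and STC2, a secreted glycoprotein, at 0.29. Of all genes, 2.71% were higher at that p.

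Respiratory chain, proteasome and proliferation genes shifted the other way in nanoparticle replicates 1 and 3. Over all genes 49.4% lay below 0, and 44.5% among genes with a mean level of at least 7. Of 33 complex I genes 28 lay below 0, with a median of -0.09. The medians by array were -0.08, 0.06 and -0.18 in nanoparticle arrays and -0.07, 0.03 and 0.03 in medium arrays. Of 27 proteasome genes 25 lay below 0, with array medians of -0.07, 0.00 and -0.18 in nanoparticle arrays and -0.01, 0.01 and 0.01 in medium arrays. Of 26 proliferation genes 23 lay below 0, with array medians of -0.15, 0.09 and -0.23 in nanoparticle arrays and -0.10, 0.02 and 0.09 in medium arrays. Nanoparticle replicate 2 was the highest and replicate 3 the lowest nanoparticle array in these 3 lists, and the reverse held in the stress response. None of the members passed the test. Only 1 member of the 3 lists had an unadjusted p under 0.05. It was CCNE2, a cyclin of the entry into DNA synthesis, at -0.27. The share of all genes lower at that p was 1.84%. Leaving out nanoparticle replicate 3 brought the medians to -0.02, -0.04 and -0.02. With scaling on the poly-A controls the 3 medians turned positive (0.05, 0.04 and 0.03), below the 0.13 of all genes.

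Nanoparticle replicate 3 also had the largest gap between the 3′ and 5′ probe sets of ACTB, a measure of RNA integrity, with gaps of 0.65, 0.55 and 0.96 in nanoparticle arrays, against 0.70, 0.61 and 0.59 in medium arrays. The gaps of GAPDH were 0.17, 0.10 and 0.16 in nanoparticle arrays, against 0.23, 0.12 and 0.10 in medium arrays, so that medium replicate 1 had the largest there. The part of these gaps in the lists and in the metallothionein difference was not tested. Complexes II to V had a median of -0.07 over 32 genes and 0 passed the test. Their array medians were -0.09, 0.04 and -0.18 in nanoparticle arrays and -0.06, 0.02 and 0.04 in medium arrays, and the median was -0.02 without nanoparticle replicate 3. ATP5MC1 lay at -0.35, and at -0.55 to -0.18 when 1 array was left out, and CYC1 lay at -0.21. The 28 ribosomal protein genes measured had a median of 0.01.

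**Figure D4:**
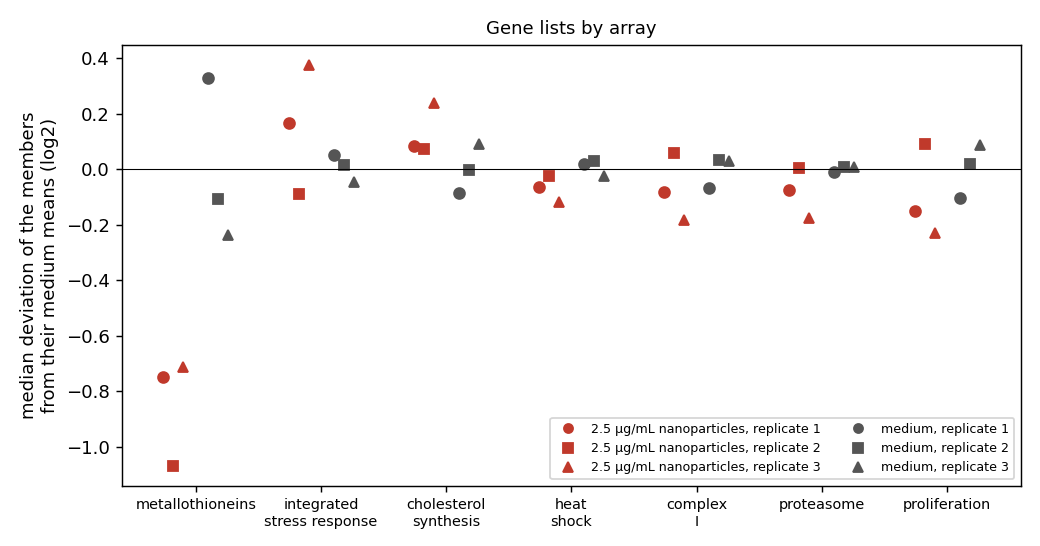
Median deviation of the members of 7 gene lists from their medium means (log2), for each nanoparticle array (2.5 µg/mL, red) and each medium array (grey). The metallothioneins lie at -1.07 to -0.71 in all 3 nanoparticle arrays, while the integrated stress response, complex I, proteasome and proliferation lists place nanoparticle replicate 2 apart from replicates 1 and 3.

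Cholesterol synthesis was the list in which every member lay on the same side. All 17 genes measured lay above 0, with a median of 0.11, against 50.6% of all genes and 55.4% of genes with a mean level of at least 7. When arrays were scaled on the hybridization controls, 5 of the 17 lay below 0. None passed the test, and 3 had an unadjusted p under 0.05, all higher, against 2.71% of all genes. LSS, which closes the sterol rings as lanosterol synthase, had 9.40, 9.40 and 9.53 in nanoparticle arrays, against 9.03, 9.30 and 9.02 in medium arrays. FDPS, of isoprenoid synthesis, had 10.61, 10.69 and 10.73 in nanoparticle arrays, against 10.28, 10.49 and 10.56 in medium arrays. Both were apart, at 0.32 and 0.23, while HMGCS1 (0.27) and HSD17B7 (0.22) overlapped. By array the medians were 0.08, 0.07 and 0.24 in nanoparticle arrays and -0.09, -0.00 and 0.09 in medium arrays, so medium replicate 3 lay above 2 of the nanoparticle arrays. At 25 µg/mL the list had a median of -0.39, with 10 of 17 genes past the test and lower, in a comparison where 19.3% of all genes were called lower.

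Genes of the differentiated enterocyte, cell contacts and uptake also held no call. Of 28 genes of digestion and absorption 0 passed, and the median was -0.01. ENPEP, a brush-border aminopeptidase, had 7.43, 7.36 and 7.40 in nanoparticle arrays, against 6.97, 6.96 and 6.98 in medium arrays. The arrays of each group were within 0.1 of each other and the groups apart by 0.43, at an unadjusted p of 0.014 and an adjusted p of 1.0. That SE, 0.15, is larger than these 6 arrays show, because the model pools the spread over all 12 arrays. Of 19 junction genes the median was 0.04, of 21 endocytosis genes -0.02, of 21 lysosome and autophagy genes -0.02, and of 26 drug metabolism genes 0.05, with 0 past the test in each. CYP3A5 lay at 0.36 and CYP1A1, an enzyme induced through the aryl hydrocarbon receptor, at 0.24, both with overlapping arrays. When 1 array was left out, CYP1A1 ran from 0.00 to 0.50 and CYP3A5 from 0.20 to 0.56.

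The interval lay within 1.5-fold for all 19 junction, all 21 endocytosis and all 21 lysosome and autophagy genes, near the 97.5% of all genes. The same held for all 33 complex I, 28 ribosomal protein and 27 proteasome genes, so it is not particular to these lists.

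Inflammatory and interferon genes had medians near 0. Of 21 NF-kB and inflammation genes 0 passed, and TNFAIP3, an inhibitor of NF-kB signalling, had the lowest p, with 8.53, 8.50 and 8.52 in nanoparticle arrays, against 8.65, 8.70 and 8.84 in medium arrays. Of 26 interferon-stimulated genes 0 passed and the median was -0.06. IRF1 lay at 0.43 with separate groups and IFIT1 at -0.27 with overlapping ones, whereas IFIT1 was -3.09 from medium at 25 µg/mL. Of 13 Wnt targets 2 had an unadjusted p under 0.05, both higher, against 2.71% of all genes. CCND1, cyclin D1, had 9.30, 9.51 and 9.27 in nanoparticle arrays, against 9.12, 9.05 and 8.98 in medium arrays. ZNRF3, a Wnt receptor inhibitor, had 8.08, 8.18 and 7.96 in nanoparticle arrays, against 7.51, 7.93 and 7.33 in medium arrays. Both were separate, at 0.31 and 0.48, although the second probe set of CCND1 lay at -0.10.

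Over the 40 gene lists examined, which held 748 distinct genes, 0 genes passed the test. The median differences of the lists other than the metallothioneins ran from -0.11 for 7 leukocyte genes to 0.13 for 9 intestinal stem cell genes.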

How the data were processed

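RNA of each of the 12 samples was hybridized to its own 3′ expression array. Per probe set, the authors deposited a log2 level; the submitters' processing notes name RMA and Partek, with versions not given in the sources used. RMA usually equalizes distributions, so a shift in total mRNA does not show. No detection calls were used, and the number of arrays limits the precision. The columns had medians of 4.73 to 4.74 for nanoparticle arrays and 4.72 to 4.75 for medium arrays. Of 54675 probe sets, 41091 matched exactly 1 gene symbol in the platform annotation and could be used. Left out were 62 controls, 1801 with several symbols and 11721 without a listed gene.

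Genes were tested with limma 3.58.1 (R 4.3.3), 1 linear model over the 4 groups, two-sided, with 8 residual degrees of freedom and a prior worth 6.25, Benjamini-Hochberg over 19775 genes at 0.05. The script was tested on simulated data. The labels give no batch. No 2 arrays were identical. The members and the 40 gene lists (762 of 845 entries measured) were chosen with earlier results of these data known. Named were the 12 highest and 12 lowest genes with separate arrays and a level of at least 6, the 5 lowest p in each direction, all metallothioneins, up to 4 members of a list by difference, and 7 stress and metal genes. Other genes named were chosen after their values were seen.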

Additional observations from a re-analysis of the deposited data

How the results depend on the processing

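No paired analysis was possible because the labels carry no replicate numbers. The replicate numbers used here follow the order of the samples within each group and pair no array with another. The count of 0 genes called became 8 with the intensity trend and 8 with hybridization scaling. Genes with an unadjusted p under 0.05 numbered 173 with poly-A scaling, 413 with hybridization scaling, 569 without dim genes, 1819 with every probe set and 1451 with array weights, and 610 to 1240 when 1 array was left out. Intervals within 2-fold were found for 9872 genes without dim genes and 41056 with every probe set. Genes with separate arrays, an alternative added after seeing the data, numbered 4049 with poly-A scaling (20.3% higher, 0.172% lower), 1118 without dim genes and 4109 with every probe set, and hybridization scaling gave 0.587% higher and 9.52% lower. These 2 scalings moved the median of all genes to 0.13 and -0.08. The metallothionein median ran from -0.96 to -0.64 when 1 array was left out, and was -0.64 without medium replicate 1. Alternatives were run for 77 of the genes named, and not for the cell type markers, ALB, SLC30A2, ZMAT3, HRK, MUC12 and MUC6. Of the 77, 69 kept their sign in all alternatives run for them. With hybridization scaling the sign turned for MT1M (-0.072), MT3 (-0.056), MT4 (-0.049) and HMOX1 (-0.014), with poly-A scaling for HSPA6 (0.12), GCLM (0.0033) and SLC30A5 (0.033), with array weights for HMOX1 (-0.043) and HSPA6 (0.20), and with the mean of probe sets for FOSL2 (-0.0030). Leaving out 1 array gave MT1M -0.036 to 0.038, MT3 -0.058 to 0.13, MT4 -0.070 to 0.10, HMOX1 -0.0026 to 0.20 and HSPA6 -0.25 to 0.15. Of the 77 genes, some of them chosen for their high-dose response, 57 differed between 25 and 2.5 µg/mL (34% of all genes did), 53 to 62 over the alternatives, and 0 differed between 2.5 µg/mL and ions in any of them. The cause of these shifts was not tested.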

Other observations

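Gene groups outside the metal and stress responses were also measured in the comparison of 2.5 µg/mL nanoparticles with medium, and 0 of their members passed the test. Of 18 p53 and DNA damage genes, 1 had an unadjusted p under 0.05, ZMAT3, an RNA-binding p53 target, at -0.27, and the median of the list was 0.03. Of 19 apoptosis genes, 1 did, HRK, a BH3-only cell death activator, at 0.33, and the median was -0.01. Of all genes, 4.55% had an unadjusted p under 0.05. Of 20 goblet and mucin genes, MUC12 and MUC6 lay lower with separate arrays, at -0.29 and -0.25. Among all genes, 4.51% lay lower with separate arrays. Both mucin genes were dim, with means of 3.88 and 4.87 in nanoparticle cells and 4.17 and 5.12 in medium cells. Of 17 cytoskeleton and matrix genes, VIM, the intermediate filament vimentin, lay at 0.47, with levels of 5.92, 6.22 and 6.37 in nanoparticle arrays, against 5.40, 5.95 and 5.76 in medium arrays. The arrays of VIM overlapped, and its second probe set lay at -0.05. Of 22 apolipoprotein and lipid export genes the median was 0.03, and ABCA1, a cholesterol exporter, lay at -0.23 with 2 of its 4 probe sets on that side. The 26 hypoxia and glycolysis genes had a median of -0.04.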
